A study of Homo sapiens with 4 samples.

Results

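The 40 genes described here encode integrins and the core proteins of focal adhesions. They were taken by symbol from a list, and all 40 were matched to a gene identifier. Together they held 613 of 116918 listed sites of protein-coding genes in PARP1 IP 1 (0.524%) and 752 of 147858 in PARP1 IP 2 (0.509%). Of the 40 genes, 38 had a site in at least 1 IP, and the series as a whole names 20912 genes.

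Integrins are transmembrane receptors made of an alpha and a beta subunit, and they bind extracellular matrix proteins such as collagen, fibronectin, laminin and vitronectin. Inside the cell, talins and kindlins bind the beta tail and switch the receptor to its active state, and vinculin, parvins and tensins couple it to actin. Focal adhesion kinase, SRC and the scaffolds paxillin and p130Cas carry the signal onward. In kidney tubules these contacts hold the epithelial cell on its basement membrane.

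The study measured RNA immunoprecipitated with PARP1, a nuclear enzyme that adds ADP-ribose chains to proteins, in HK-2 cells, an immortalised line of human proximal tubule epithelium. The groups were 2 PARP1 IPs and 2 inputs, all from HK-2 cells with no treatment named in the labels. A Flag antibody on beads was used for the IP, no crosslinking step is described, and the labels name neither a tagged PARP1 construct nor separate cultures, so differences between the IPs may be technical. Input values were not analysed here. How much of a transcript's listing reflects binding and how much its abundance therefore cannot be told apart, and no test of enrichment was made.

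A listed site is 1 base at which at least 2 of the tags (sequenced fragments) covering it differed from the reference. Summed over sites, IP 1 held 419675 tags at 166248 sites and IP 2 held 572870 tags at 229782 sites. Of these 1835 and 2382 tags lay over sites of the 40 genes. A tag that covers several listed bases is counted at each of them, so these totals are not numbers of separate fragments. Paired values below are those of IP 1 and IP 2 in that order, and gene coordinates are GRCh38. The median site had 2 tags in both lists, so most values below rest on few reads. Of 14 proximal tubule markers, 9 had a sense site in both IPs, PAX8 leading with 23 and 21, and AQP1 and ANPEP had no site. Of the markers of other cell types, 0 of 5 leukocyte, 2 of 4 endothelial and 0 of 5 fibroblast genes had a sense site in both IPs. A site exists only where reads carry a mismatch, so a gene with no site may still be transcribed.

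Shown here are the 5 sense bases of these genes that were classed as exonic and listed in both IPs. The same base in both lists is the only replicate evidence for a single position. The sequences are from GENCODE 29 transcripts (GRCh38), 5′ to 3′ on the strand of the gene, and the capital letter is the listed base. Each is a substitution.
BCAR1 coding exon 5 of 7, chr16:75235339-75235399, minus strand: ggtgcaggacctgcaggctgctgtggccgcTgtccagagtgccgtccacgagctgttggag
TNS1 coding exon 19 of 33, chr2:217847553-217847613, minus strand: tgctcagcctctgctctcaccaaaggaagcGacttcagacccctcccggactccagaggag
ITGB4 3′ UTR, exon 40 of 40, chr17:75757566-75757594, plus strand: ccccacccccgccaCgtcccactaggcgt
NEDD9 3′ UTR, exon 7 of 7, chr6:11184914-11184942, minus strand: ctgagacataaactGtacagaaaacttgt
TNS3 3′ UTR, exon 31 of 31, chr7:47276974-47277002, minus strand: gagggatggaaaacTcctggatttaagct

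At the BCAR1 base both tags of IP 1 and all 9 tags of IP 2 were mutated. At the TNS1 base all 4 and all 5 tags were mutated. The ITGB4 and NEDD9 bases each had 2 mutated tags of 2 in IP 1 and 3 of 3 in IP 2. TNS3 stood apart from these: its base had 4 mutated tags of 4 in IP 1, but 3 mutated tags of 15 in IP 2. None of the 5 capitals lies in a run of 3 or more equal bases. Whether a base mutated in every tag is a variant of the HK-2 genome was not tested.

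A site on either strand in both IPs was found for 35 of the 40 genes (87.5%), against 55.4% of all 19951 protein-coding genes. A sense site in both IPs was found for 32 (80.0%), against 50.7% of protein-coding genes. Counts rose with gene span over all protein-coding genes (Spearman rho 0.609 in IP 1 and 0.655 in IP 2), and 19 of the 40 genes fell in the longest 20% by span. Protein-coding genes with the same mix of gene spans (annotated start to end, in deciles) had a site in both IPs in 76.8% of cases and a sense site in both in 71.8%, and so lay closer to the 40 genes than to the background. The counts fall with stricter lists. Among sites with at least 3 mutated tags, 22 of the 40 genes (55.0%) had a site in both IPs and 21 (52.5%) a sense site in both. The shares of protein-coding genes were then 14.5% and 13.8%, and 24.6% and 23.8% with the same mix of spans. Among sites with at least 1 unmutated tag, 15 genes (37.5%) had a sense site in both IPs, and the same number had a site on either strand. Here protein-coding genes had 15.6% and 15.9%, and 25.7% and 26.1% with the same mix of spans. Among deletions and insertions alone, 23 of the 40 (57.5%) had a site in both IPs, against 29.6% and 47.6%.

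To set span aside, each gene's density, its sense sites per 10 kb of span, was ranked within its span decile of protein-coding genes. The median of the 40 mean percentiles was 71.1. In both IPs 6 of the 40 genes (15%) ranked at the 90th percentile or above (ITGA3, ITGB5, VCL, TNS3, PTK2 and BCAR1), against 4.85% of protein-coding genes. The order of genes was alike in the IPs, with a Spearman rho of 0.904 over the 40 site counts and 0.772 over the densities. Span itself had a rho of 0.549 with the 40 counts of IP 1 and 0.539 with those of IP 2. In the accounts by role, bracketed pairs after site counts are these percentiles.

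**Figure D1:**
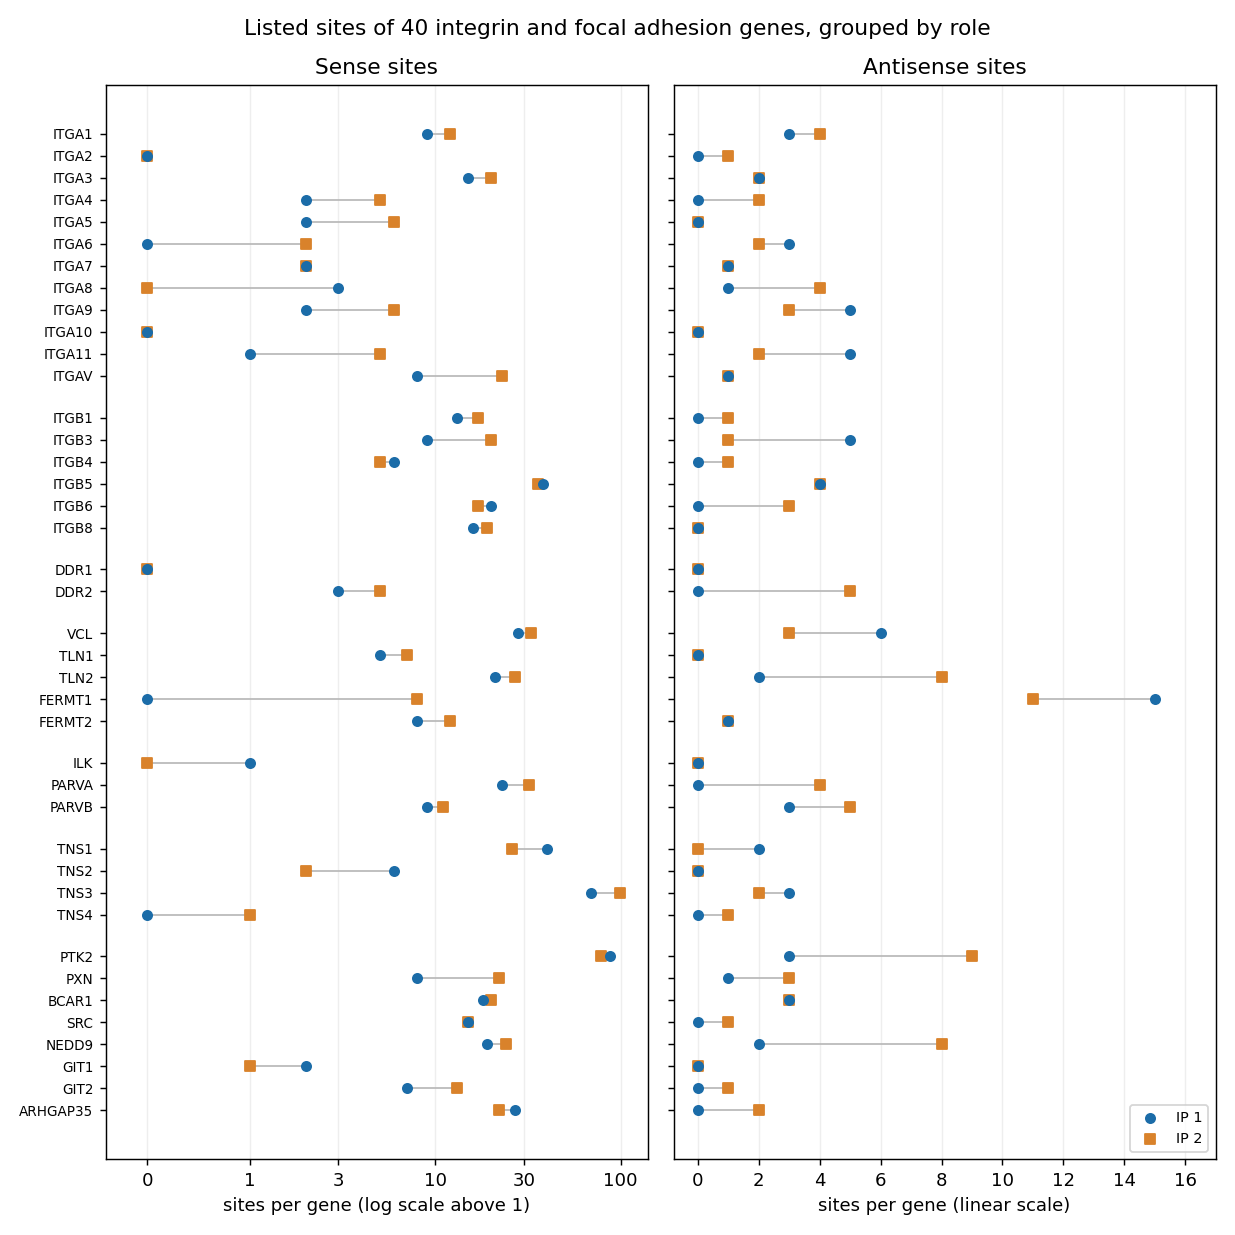
Sense sites (left, log scale above 1) and antisense sites (right, linear scale) of the 40 genes in IP 1 (circles) and IP 2 (squares), grouped by role, with a line joining the values of a gene. Sense counts run up to 99 in TNS3, while FERMT1 alone has more than 10 antisense sites in both IPs.

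The 12 alpha subunits, which set the ligand of the receptor, together held 44 and 81 sense sites, or 0.326 and 0.601 per 10 kb, with median percentiles of 32.8 and 38.3. A sense site in both IPs was found for 8 of the 12 (66.7%), against 50.7% of protein-coding genes and 73.1% of those with the same mix of spans as these subunits. ITGA3 (chr17:50055968-50090481), the alpha subunit of a laminin receptor of epithelia, led with 15 and 20 sense sites and percentiles of 97.7 and 98.9. ITGAV (chr2:186590065-186680901), the alpha subunit of vitronectin and TGF-beta-activating receptors, had 8 and 23, at percentiles of 59.2 and 91.3. Its 1 shared base, in intron 18, had 2 mutated tags of 2 in each IP. ITGA1, a collagen receptor subunit, had 9 and 12 sense sites, which is an average density for its span (55.0 and 55.2).

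The remaining alpha subunits had 6 sense sites or fewer in each IP. ITGA5, of the main fibronectin receptor, had 2 and 6, ITGA4 had 2 and 5, ITGA9 had 2 and 6, and ITGA11 had 1 and 5. ITGA7 had 2 in both. ITGA6, a laminin receptor subunit, had 0 and 2, and ITGA8, which in mouse is required for kidney development, had 3 and 0. ITGA2 had no sense site in either IP, and ITGA10 (chr1:145891208-145910189), of a cartilage collagen receptor, had no site at all.

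Of the 20 ITGA3 sites in IP 2, 10 were neighbouring deleted bases in 1 intron with at most 7 tags. With sites within 10 bases counted as 1, ITGA3 had 13 and 9 groups and percentiles of 97.8 and 89.6. The same count gave 5 genes at the 90th percentile or above in both IPs: ITGB5, PTK2, BCAR1, TNS3 and ARHGAP35. Over protein-coding genes this held for 1006 of 19951.

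All 6 beta subunits, whose tails recruit the adhesion proteins, had sense sites in both IPs. This held for 50.7% of protein-coding genes and 75.2% of those with the same mix of spans as these subunits. The beta subunits had 102 and 114 sites, or 1.94 and 2.17 per 10 kb, with median percentiles of 80.1 and 80.4. ITGB5 (chr3:124761948-124901418), a partner of ITGAV, led with 38 and 36 sense sites and percentiles of 95.8 and 92.0. Of these 37 and 36 were intronic, and 2 intronic bases were shared. ITGB3 (chr17:47253846-47311816), another ITGAV partner, had 9 and 20 (76.6 and 95.3). ITGB6 (chr2:160099666-160200313), the epithelial partner of ITGAV that activates latent TGF-beta, had 20 and 17 (88.8 and 76.3), and ITGB8 had 16 and 19 (83.5 and 84.5). ITGB4 (chr17:75721328-75757818), the hemidesmosome subunit, had 6 and 5 (75.0 and 63.0). The alpha and beta percentiles overlapped, since ITGA3 lay above every beta subunit in both IPs. With sites within 10 bases counted as 1, this held in IP 1 only. In IP 2 ITGA3 (89.6) then lay below ITGB3 (95.3) and ITGB5 (94.8).

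Other genes share the ground of several of these. ITGB3 and the protein-coding AC068234.1 overlap on the same strand, as do ITGB6 and AC092153.1, and the shared ITGB4 base lies within GALK1 on the other strand. Assignment of reads between them is not given. The ITGB6 bases were in introns 7 and 12. At the first of these the lists differed in kind, with a substitution in IP 1 (2 mutated tags of 2) and an insertion in IP 2 (2 of 4). The kind was the same in both lists at 39 of the 40 shared bases of these genes, this one being the exception.

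ITGB1 (chr10:32900319-33005792), the beta subunit shared by most matrix-binding integrins, had 13 and 17 sense sites (71.8 and 74.5) and no shared base. Its coding exon 4 nevertheless held the most deeply covered site of the 40 genes, a deletion of 2 neighbouring bases in IP 2 with 73 and 72 tags, 4 of them mutated at each base. The next deepest was a deletion in the 3′ UTR of ITGA3 in IP 1, with 4 mutated tags of 55. Both are shown because here most tags match the reference, unlike at most shared bases. The capitals are the deleted bases, and in both stretches a deleted base belongs to a run of 3 equal bases.
ITGB1 coding exon 4 of 16, chr10:32929901-32929961, minus strand: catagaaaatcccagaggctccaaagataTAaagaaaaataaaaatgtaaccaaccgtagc
ITGA3 3′ UTR, exon 26 of 26, chr17:50089865-50089893, plus strand: ccagaacggcttgcTttcctgcatctctg

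Among the collagen receptor kinases, DDR2 had 3 and 5 sense sites (29.5 and 30.9), all intronic. DDR1 (chr6:30876421-30900156), the epithelial member of the pair, had none on either strand. DDR1 lies in the major histocompatibility region, inside 116 protein-coding genes in a row without a site over 2.47 Mb, where the lists held 0 sites in IP 1 and 3 in IP 2. Its lack of sites is therefore shared by its neighbourhood. ITGA10, by contrast, had neighbours with sites on both sides. The 2 genes of 40 (5%) with no site in either IP compare with 28.2% of protein-coding genes and 11.9% of those with the same mix of spans.

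The proteins that bind beta tails and actin had 62 and 87 sense sites. VCL (chr10:73995193-74121363), vinculin, had 28 and 33 (91.6 and 92.4), and 87.2 and 91.6 with neighbouring sites counted as 1. It had 2 shared bases, in intron 16 (3 mutated tags of 3 in both IPs) and intron 19 (3 of 5 in IP 1 and 2 of 2 in IP 2). TLN1, the main talin of most cells, had 5 and 7 (70.4 and 74.4). TLN2 (chr15:62390526-62844631), the longer second talin, had 21 and 27 (52.4 and 51.3) and 1 shared base in intron 41. FERMT2 (chr14:52857268-52952435), kindlin-2, had 8 and 12 (57.6 and 65.0) and 1 shared base in intron 3.

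For TLN2 the lists leave out part of the gene as GENCODE 29 draws it. Its annotated span held 45 and 59 sites on its strand, and 24 and 32 of these in the 5′ part had been given to no gene. Counting them raised the percentiles of TLN2 to 71.8 and 73.6. Over the whole set, sites placed by span in place of the lists' identifiers again gave 32 genes with sense sites in both IPs.

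FERMT1 (chr20:6074845-6123544), kindlin-1, the kindlin of epithelia, was listed mainly on the opposite strand. It had 15 and 11 antisense sites, against 0 and 8 sense sites. It was the 1 gene of 40 (2.5%) with more antisense than sense sites in both IPs, against 2.11% of protein-coding genes and 2.84% with the same mix of spans. All its antisense sites were mutated in every tag. Among them 2 bases were shared, opposite intron 6 (4 mutated tags of 4 in IP 1 and 3 of 3 in IP 2) and intron 13 (2 of 2 in both). No GENCODE 29 gene overlaps FERMT1 on the other strand. The sources used here do not say whether the libraries keep strand.

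ILK, the pseudokinase that joins integrin tails to parvins, is short (7167 bases) and had 1 and 0 sense sites. PARVA (chr11:12377185-12535356), alpha-parvin, had 23 and 32 (77.1 and 84.5), and its 2 shared bases lie 3 bases apart in intron 10 with 2 mutated tags of 2 in every case. Counted as 1 position, PARVA has 1 shared group. PARVB had 9 and 11 (54.7 and 52.9) and no shared base.

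The tensins, which bind beta tails and actin, had 115 and 128 sense sites, nearly all in the 2 long genes. TNS3 (chr7:47275154-47582558) had 69 and 99, the most of the set in IP 2, at percentiles of 94.96 and 97.42. It had 5 shared bases, the 3′ UTR base shown above and 4 in introns 3, 4, 9 and 16. TNS1 (chr2:217799588-218033982) had 40 and 26 (88.5 and 68.3) and 3 shared bases, the coding base above and 1 in each flanking intron (18 and 19). TNS2 (chr12:53046969-53064372) had 6 and 2 (92.5 and 65.1) and 1 shared base in intron 10, with 6 mutated tags of 6 in IP 1 and 2 of 2 in IP 2. TNS4, which lacks the actin-binding part, had 0 and 1.

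Of the signalling proteins, PTK2 (chr8:140657900-141002216), focal adhesion kinase, had 87 and 78 sense sites. Only 2 of the 87 and none of the 78 were exonic. It held 7 of the 35 shared sense bases, more than any other member, and all 7 lie in intron 1 of a transcript of 32 exons. Of these 7, 4 are neighbouring deleted bases with 2 mutated tags of 2 in IP 1 and 4 of 5 in IP 2. The other bases are substitutions with 2 mutated tags of 2 in both lists, or 6 of 6 in IP 1 and 2 of 2 in IP 2 for 1 of them.

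BCAR1 (chr16:75228187-75268053), the scaffold p130Cas that is stretched at adhesions, had 18 and 20 sense sites, with percentiles of 99.3 and 98.9, the highest of the set in IP 1 and level with ITGA3 in IP 2. Its coding exons held 5 and 4 sites, which are 4 and 2 with neighbours within 10 bases counted as 1. The annotation has 2 processed pseudogenes of BCAR1 on chromosome 15, and neither list gives them a site. Besides the coding base above, a base in intron 2 was shared, with 7 mutated tags of 7 in IP 1 and 2 of 2 in IP 2. ARHGAP35 (chr19:46918676-47005077), the p190 RhoGAP that lowers RhoA activity at new adhesions, had 27 and 22 (96.0 and 88.6) and 2 shared bases in introns 1 and 4. The first of these had 6 mutated tags of 6 in IP 1 and 4 of 4 in IP 2.

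SRC, the kinase that partners focal adhesion kinase, had 15 sites in both IPs (91.4 and 87.4) and no shared base. NEDD9 (chr6:11183298-11382348), a relative of p130Cas, had 19 and 24 (71.0 and 71.2) and 2 shared bases, in the 3′ UTR and intron 1. PXN, paxillin, had 8 and 22 (73.4 and 96.8), and all of them were intronic. Of the paxillin-binding ARF regulators GIT1 had 2 and 1, and GIT2 had 7 and 13. The 8 signalling genes all had sense sites in both IPs, 183 and 195 in number, or 2.09 and 2.23 per 10 kb. A sense site in both was found for 50.7% of protein-coding genes, and 73.6% with the same mix of spans as these 8.

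**Figure D2:**
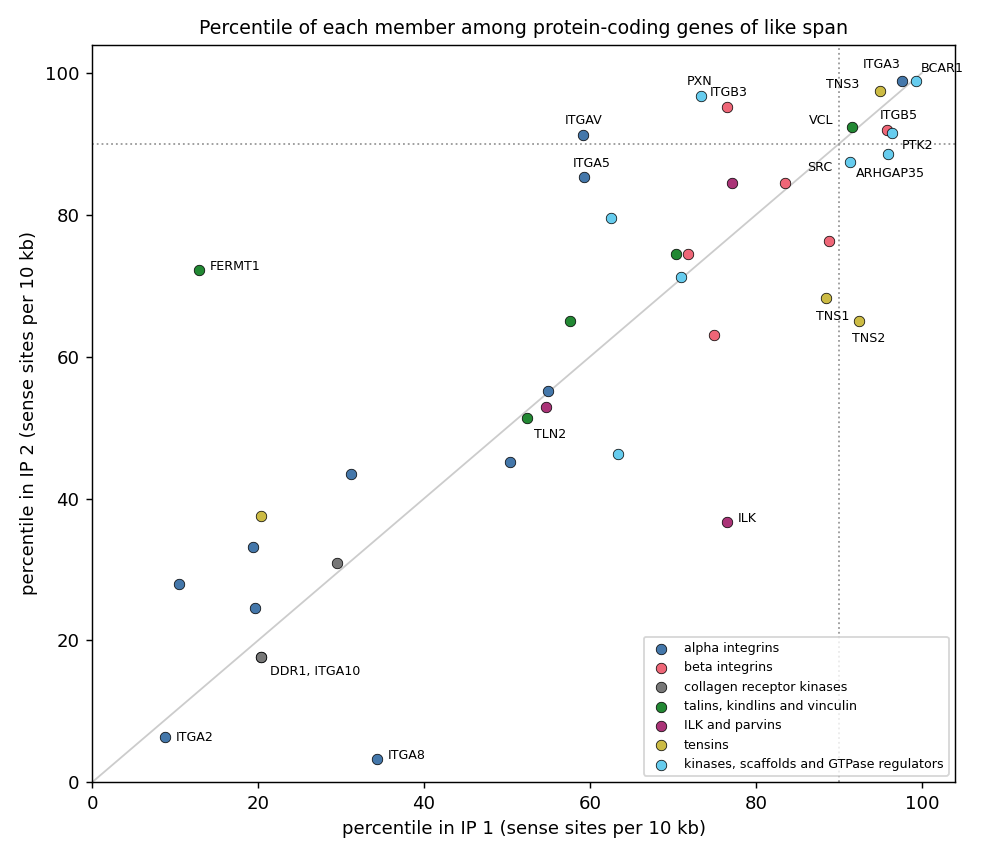
Rank, as a percentile, of each gene's density of sense sites within protein-coding genes of like span, in IP 1 (horizontal axis) and IP 2 (vertical axis), 1 point per gene, coloured by role. Dotted lines mark the 90th percentile, the grey diagonal equal values. The alpha integrins lie mostly at the lower left, and ITGA3, ITGB5, VCL, TNS3, PTK2 and BCAR1 lie above both lines.

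The IPs differed in total. Sense sites of the 40 genes numbered 542 in IP 1 and 653 in IP 2, a ratio of IP 2 to IP 1 of 1.20, and protein-coding genes as a whole had a ratio of 1.21. The set therefore moved with the lists. Counts were higher in IP 2 for 25 genes, lower for 10 and equal for 5. Over protein-coding genes they were higher in IP 2 for 7562, lower for 4511 and equal for 7878. Single genes went further, such as ITGAV and PXN with more sites in IP 2 and TNS1 with more in IP 1. With 1 value per IP no test of these differences was made.

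At least 1 sense base was listed in both IPs for 16 of the 40 genes (40%), against 14.1% of protein-coding genes and 23.3% of those with the same mix of spans. This count rests largely on thinly covered sites. With at least 3 mutated tags in both lists it was 4 (10.0%), against 2.36% of protein-coding genes and 3.75% with the same mix of spans. With an FDR below the most common value of each list it was 5 (12.5%), against 4.56% and 7.48%. With deletions and insertions alone it was 1 (2.5%), against 2.84% and 4.85%, and so not above either. With all sites kept, the 16 genes were 1 of 12 alpha and 4 of 6 beta subunits and 0 of 2 collagen receptor kinases. The others were 3 of 5 talins, kindlins and vinculin, 1 of 3 of ILK and the parvins, 3 of 4 tensins, and 4 of 8 signalling genes. Protein-coding genes with the same mix of spans as each role had 24.0%, 24.1%, 18.7%, 25.0%, 22.9%, 22.4% and 22.3%, in that order. Counting both strands, 40 bases were shared, which are 36 positions with neighbours within 10 bases counted as 1. They were 6.53% of the member sites of IP 1 (exact 95% interval 4.70 to 8.78) and 5.32% of those of IP 2 (3.83 to 7.17), against 4.68% and 3.70% over protein-coding genes. These intervals cover counting error only. Most sites of a gene were thus found in 1 IP and not the other, as over all genes.

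**Figure D3:**
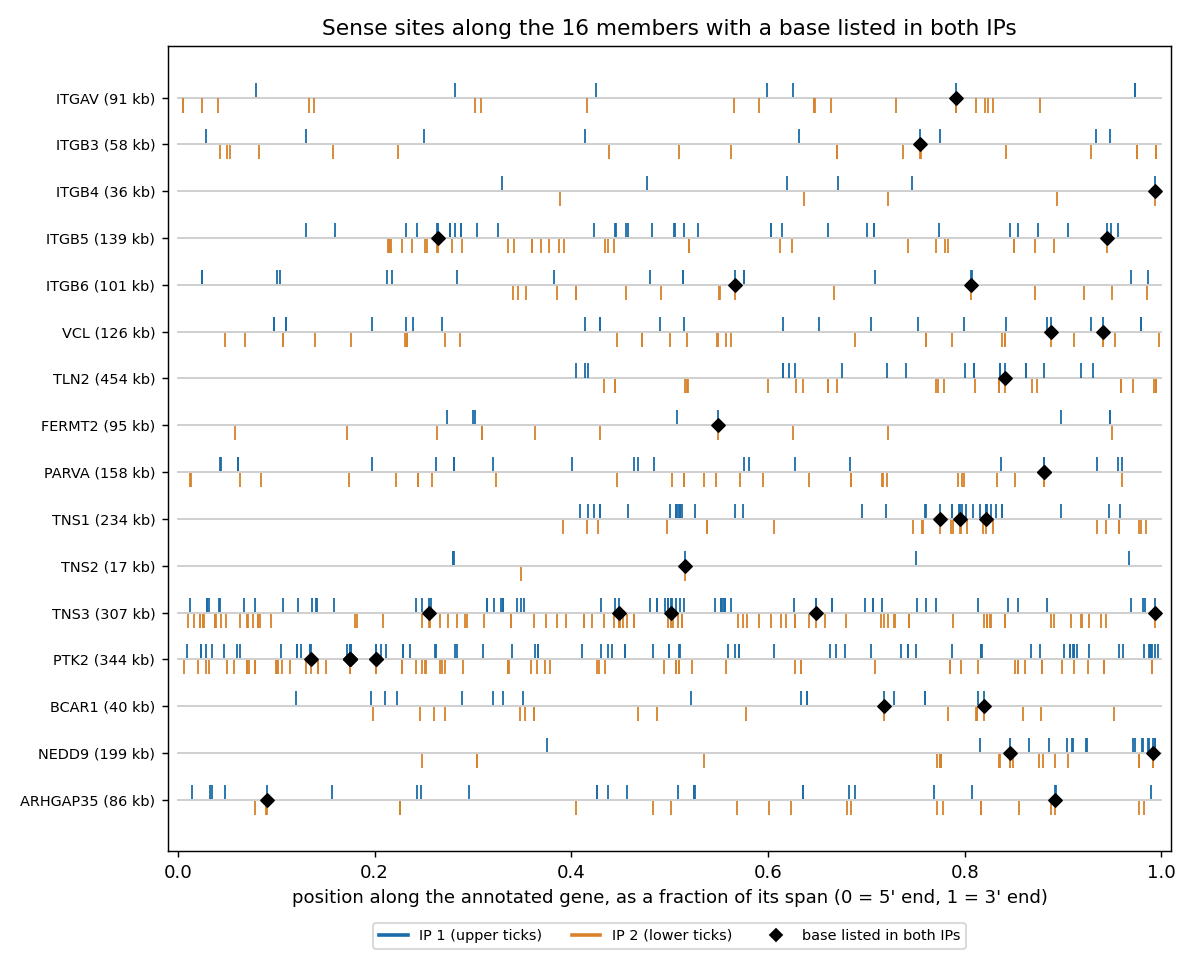
Sense sites along the 16 genes with a shared base, from the 5′ end (0) to the 3′ end (1) of the annotated span given in kb, with IP 1 as upper ticks, IP 2 as lower ticks and bases listed in both as diamonds; neighbouring diamonds overlap. The first 40% of TLN2 holds no site given to it, and all shared bases of PTK2 lie in the first 40% of its span.

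The shared bases were mostly mutated without exception. In both IPs every tag was mutated at 32 of the 40 shared bases (80.0%, interval 64.4 to 90.9), against 84.1% of the 5463 shared bases of protein-coding genes. This is not particular to shared bases. Every tag was mutated at 82.7% of all member sites of IP 1 and 80.9% of those of IP 2, shared or not. Of the 40 bases, 16 had just 2 mutated tags in both lists. The 8 bases with an unmutated tag in a list were the 4 PTK2 deletions and 1 base each of ITGA3 (antisense), ITGB6, TNS3 and VCL. When only sites with at least 1 unmutated tag were kept in both lists, 0 of the 40 genes had a shared sense base, against 1.17% of protein-coding genes. Every shared sense base of these genes was thus fully mutated in at least 1 IP. The origin of these bases was not tested.

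The location of sites also differed between fully and partly mutated sites. This split is in large part one of coverage. A listed site has at least 2 mutated tags, so a partly mutated site has more than 2 tags. Of the fully mutated member sites, 448 of 507 in IP 1 and 514 of 608 in IP 2 had just 2 tags. Coverage and mutated share were not told apart here. Of the member sites with at least 1 unmutated tag, 22.6% in IP 1 (15.1 to 31.8) and 15.97% in IP 2 (10.4 to 23.0) were exonic. Of those mutated in every tag, 4.73% and 3.62% were exonic. Antisense sites showed the opposite: 1 of 106 and 1 of 144 partly mutated sites were antisense (0.943% and 0.694%), against 13.8% and 16.1% of fully mutated sites. Substitutions made up 13.2% and 14.6% of the partly mutated sites and 83.6% and 83.4% of the fully mutated ones. All protein-coding genes had the same pattern, with 2.05% and 2.38% antisense among partly mutated sites and 12.6% and 17.3% among fully mutated ones.

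**Figure D4:**
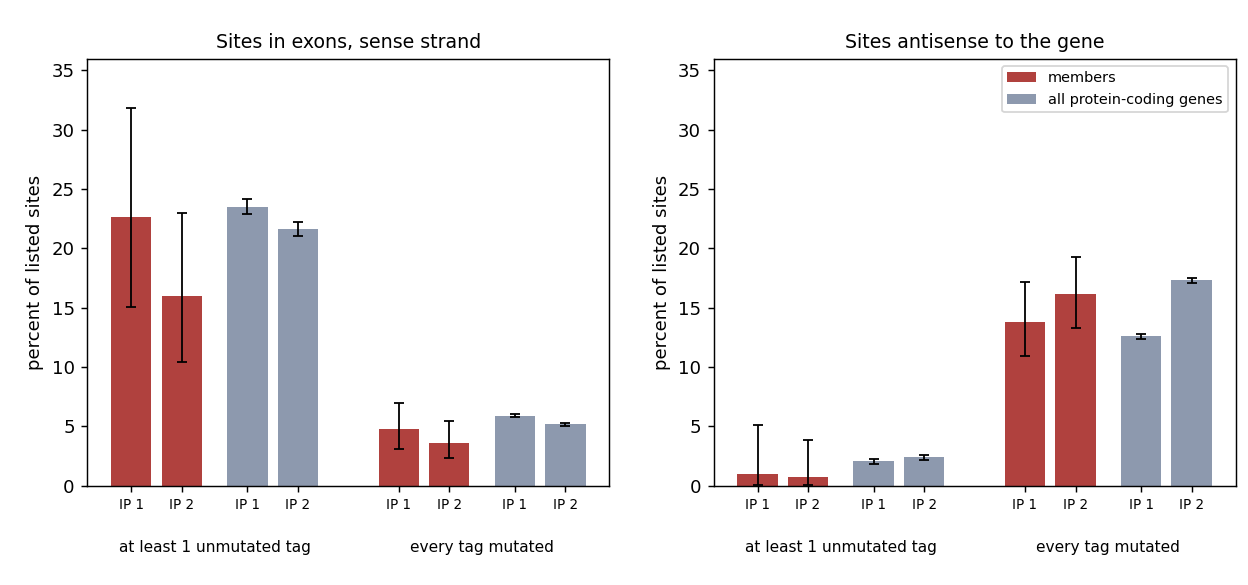
Percent of listed sites that were exonic (left) or antisense (right), among sites with at least 1 unmutated tag and among sites mutated in every tag, for the 40 genes (red) and all protein-coding genes (grey) in each IP. Bars are percents and lines exact 95% intervals. Partly mutated sites are more often exonic and less often antisense in both gene sets.

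The only partly mutated antisense site of the 40 genes was the same ITGA3 base in both IPs, with 6 mutated tags of 9 in IP 1 and 5 of 9 in IP 2. It lies opposite the last exon of ITGA3, and a second shared antisense base in the same exon was mutated in 4 of 4 and 6 of 6 tags. No GENCODE 29 gene overlaps ITGA3 on the other strand. The windows are shown on the strand of ITGA3, next to the deep 3′ UTR deletion above, with the base opposite the listed one in capitals.
ITGA3 exon 26, partly mutated antisense base, chr17:50089984-50090012, plus strand: actgtgctggggcaCggcgggatcctcca
ITGA3 exon 26, fully mutated antisense base, chr17:50089920-50089948, plus strand: tgaactcgcagggaAtgcagcaggaagga

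A shared antisense base was found for 3 of the 40 genes (7.5%; ITGA3, FERMT1 and PXN), against 1.24% of protein-coding genes and 1.83% of those with the same mix of spans. Antisense sites in both IPs were found for 20 of the 40 (50%), against 19.1% and 34%. Antisense sites made up 11.6% of member sites in IP 1 and 13.2% in IP 2, against 11.1% and 15.2% over protein-coding genes, so their share was near the background.

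Most sites of these genes lay in introns, 80.6% in IP 1 and 80.9% in IP 2, against 80.6% and 77.3% over protein-coding genes. Exons held 7.83% (5.83 to 10.2) and 5.98% (4.40 to 7.93), against 8.32% and 7.44%. An exonic sense site in both IPs was found for 14 of the 40 genes (35%), against 14.6% of protein-coding genes (20.3% with the same mix of spans). In either IP it was found for 28 (70%), against 38.1% (47.4% with the same mix of spans). By exonic sites per kb of exon, the median percentile of the 40 genes was 59.0, and 1 gene reached the 90th percentile in both IPs. Over protein-coding genes 584 of 19951 reached it, so this count was near the background.

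The share of sites with many mutated tags was higher in these genes than over all protein-coding genes. At least 4 mutated tags were counted at 6.69% of member sites in IP 1 (4.84 to 8.96) and 11.6% in IP 2 (9.37 to 14.1), against 4.68% and 5.12% over protein-coding genes. With neighbours within 10 bases counted as 1 the shares were 7.36% and 9.88%, against 4.97% and 5.42%. Sites with 10 or more tags were 2.61% and 1.99%, against 1.34% and 1.36%, and the interval of IP 2 (1.12 to 3.27) holds the background. Counted as groups of neighbours, these were 1.80% (0.864 to 3.28) and 1.77% (0.918 to 3.07), against 1.16% and 1.19%, so both intervals hold the share over protein-coding genes. The deepest beside ITGB1 and ITGA3 were in exons of BCAR1, ARHGAP35, VCL, ITGA5, ITGAV and TNS3, with 13 to 16 tags.

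Along the gene, 25.5% of the members' sense sites in IP 1 (21.8 to 29.3) and 22.8% in IP 2 (19.7 to 26.2) lay in the last 20% of the span, against 20.4% in both IPs over protein-coding genes. The first 20% held 15.5% in IP 1 (12.6 to 18.8) and 17.2% in IP 2 (14.3 to 20.3), against 20.0% and 20.2%. The interval of IP 2 thus holds the share over protein-coding genes at both ends of the span. Without TLN2 the first 20% held 16.1% and 17.9%, and the last 20% held 24.4% and 21.9%. With all sites of the TLN2 span counted, the first 20% held 18.0% (14.9 to 21.4) and 20.3% (17.3 to 23.5), and the last 20% held 24.4% and 21.8%. Genes differed in this. NEDD9 had 18 of 19 and 13 of 24 sites in its last 20%, TNS1 had 0 in its first 20% in both IPs, and TLN2, whose 5′ sites were given to no gene, had 0 in its first 40%. ITGA1 ran the other way, with 5 and 7 sites in its first 20% and 0 in its last 20% in both IPs. PTK2 had 23 and 25 sites in the first 20% and 22 and 15 in the last.

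At the bases themselves, all 93 exonic sites of the 40 genes could be placed in a transcript. The reference base was G at 38.3% (24.5 to 53.6) of their 47 exonic substitutions, C at 29.8%, T at 23.4% and A at 8.51% (2.37 to 20.4), against 25.8%, 28.6%, 24.0% and 21.6% of 10374 exonic substitutions of protein-coding genes. Of 36 exonic deleted bases 41.7% (25.5 to 59.2) lay in a run of 3 or more equal bases, against 45.0% over protein-coding genes. Such runs make up 20.9% of the transcript bases of the 40 genes. For these runs the interval of the members holds the share over protein-coding genes. For base A the pooled interval does not. In IP 1 alone base A was at 13.6% (2.91 to 34.9) against 21.8%, so that interval holds the share. In IP 2 alone it was at 4.0% (0.101 to 20.4) against 21.4%. Bases listed in both IPs enter the pooled values from each list, which the pooled intervals do not allow for.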

How the data were processed

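Site lists of 2 PARP1 IPs from HK-2 cells were analysed, and the 2 inputs were not analysed here. The submitters' processing notes name bcl2fastq, TopHat2 and GRCh38; neither versions, site caller nor duplicate handling is given in the sources used here. Per the file headers, each list holds counts of tags and of mutated tags at a site. The authors also deposited an FDR (an adjusted p-value) per site, which was at most 0.00926. Deposited region classes and gene identifiers were used as given. The design had assumed peaks, so each listed base was treated as a peak of 1 base, and shared means the same base and strand. Unused columns of per-sample values numbered 0. Spans, exons and transcript sequences came from GENCODE 29. Densities are sense sites per 10 kb, ranked within 10 span bins of 19951 protein-coding genes. Intervals are exact (Clopper-Pearson) at 95% and cover counting error only, since PCR copies were not told apart by molecular identifiers. Total library depth is unknown, and tag totals refer to listed sites. No p-value was computed. Scripts ran in Python 3.11.15 with pandas 2.3.3, numpy 2.4.6, scipy 1.17.1 and matplotlib 3.10.9, and were tested on simulated data. The members, role groups and marker lists were chosen with earlier results of these data known. Values are given in full for genes with a shared sense base, genes without a site, the 5 highest mean percentiles and the 5 highest sense counts. FERMT1, the deep sites and the ITGA3 antisense bases were added after their values were seen. Alternatives changed the minimum of mutated tags, the FDR, the mutation types, the overlap, the gene assignment and the IPs used.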

Additional observations from a re-analysis of the deposited data

How the results depend on the processing

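With at least 3 mutated tags in a site, 22 of the 40 genes had a site in both IPs, 21 a sense site in both and 4 a shared sense base (ARHGAP35, TNS1, TNS3 and VCL). With an FDR below the most common value of the list, 5 had a shared base, PTK2 being the other. With deletions and insertions only, 23 had a site in both and 1 (PTK2) a shared base. Of sites with at least 1 unmutated tag, a filter chosen after seeing the data, 15 genes had a site in both, 15 a sense site in both, and 0 a shared base. The share of IP 1 sites found in IP 2 was 8.97% with 3 mutated tags, 4.58% at the lower FDR, 2.29% for deletions and insertions and 0.943% for partly mutated sites. The share of IP 2 sites found in IP 1 was 3.47% at the lower FDR, 1.79% for deletions and insertions and 0.694% for partly mutated sites. Pooled over both lists, exons held 6.81% of sites, and 12.3% with 3 mutated tags, 11.1% at the lower FDR, 4.87% for substitutions, 11.5% for deletions and insertions and 18.8% for partly mutated sites. Antisense sites were 12.5%, and 6.64%, 5.75%, 15.7%, 4.51% and 0.8% under the same filters in that order. Introns held 80.7%, with 83.1% at the lower FDR and 84.0% for deletions and insertions. The median percentile of 71.1 was 59.0 by exonic sites, 67.6 among genes with a site, 74.1 with neighbours counted as 1, and 66.9 to 69.7 in single IPs. The last 20% of the span held 24.0% of sense sites, and 28.2% of partly mutated ones. The first 20% held 16.4%, and 19.3% with all sites of the TLN2 span. The causes of these shifts were not tested. The other 48 values under these settings stayed within the limit set for them. This limit was the interval for shares and 1.5 times the count for counts. For the median percentile it was the standard deviation of the medians of the 2 IPs. Leaving out an IP gave 36 to 37 genes with a site, 34 to 35 with a sense site, and exonic shares of 5.98% to 7.83%; antisense shares ran from 11.6% to 13.2%, intron shares from 80.6% to 80.9%, the last 20% of the span from 22.8% to 25.5% and deletions in runs from 31.2% to 50.0%. The 2-tag sites limit every value: a base or gene with less depth than 2 mutated tags cannot be listed. Merging neighbours, single IPs for densities, all filters on the last 20% and both settings for TLN2 were likewise chosen after seeing the data. Sharing of bases needs both IPs, so it has no value without 1 of them. No paired analysis was possible because the inputs, which carry the same replicate numbers as the IPs, have no values here and no test between groups was made.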

Other observations

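The wider adhesion machinery outside the 40 genes can be set beside them. Of 50 other adhesion genes, 47 had a site in both IPs, 46 a sense site in both and 23 a shared sense base, and 14 ranked at the 90th percentile or above in both. These are 94.0%, 92.0%, 46.0% and 28.0%, against 55.4%, 50.7%, 14.1% and 4.85% of protein-coding genes, and 79.9%, 74.9%, 25.9% and 6.09% of those with the same mix of spans as the 50. DOCK1, a RAC activator downstream of p130Cas, had 152 and 184 sense sites in IPs 1 and 2 and 15 shared bases. RAPGEF1, a RAP1 activator, had 45 and 62 with 6 shared bases, and SVIL, an actin-bundling protein, had 82 and 74 with 6. Of 9 integrins of leukocytes and platelets and kindlin-3, 2 had a sense site in both IPs and 1 (ITGAE) a shared base, or 22.2% and 11.1%, against 58.6% and 13.7% of protein-coding genes with the same mix of spans. ITGAX had 3 and 8 sense sites, the most of these 9. These lists were chosen with earlier results of the data known.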
